A study of Mus musculus with 6 samples.

Results

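The 28 genes described here encode enzymes of the mevalonate and sterol synthesis pathway, the machinery that controls SREBP2, a sterol carrier, and the LXR receptors with their efflux genes. They were chosen by name, and probes were matched to them through the RefSeq accession of each probe. All 28 were measured, among 23460 genes or unnamed transcripts tested, by 39 probes, each well above background on all 6 arrays except the second Mylip probe (5 of 6). The values come from 6 single-colour arrays, 1 for each of 6 female mice that were 8 weeks old and, in both groups, labelled Trp-53 knockout. Diets began at 3 weeks of age and lasted 5 weeks, with 3 mice on a high-fat diet (HFD) and 3 on a control diet (CD). The labels give neither strain nor diet composition, no mice with intact Trp53 were measured, and the labels name both mammary glands and mammary epithelial cells as the source.

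Cells make cholesterol from acetyl-CoA through mevalonate, the isoprenoid farnesyl diphosphate, squalene and lanosterol. When membrane sterol is low, SCAP carries SREBP2 from the endoplasmic reticulum to the Golgi, where proteolysis frees a transcription factor that activates nearly every enzyme gene of the route, and the INSIG proteins hold SCAP back when sterol is plentiful. The LXR receptors respond to oxysterols and activate the exporters ABCA1 and ABCG1 and the ubiquitin ligase MYLIP, so that the synthesis and efflux arms usually answer sterol in opposite directions.

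Promoter sequence is shown for 4 members because it sets the synthesis and efflux arms side by side. RefSeq promoters of build GRCm38.p6 matched 23 of the 28 members; Fdps, Fdft1, Sqle, Stard4 and Abcg1 had no entry. Each sequence is the 250 bases before the annotated start, read 5′ to 3′ on the gene's strand, in lower case. Capitals mark the CCAAT box, the core of the NF-Y site (CCAAT or ATTGG), and a relaxed sterol regulatory element (TCACNCCAC on either strand). Hmgcs1 (chr13:119690101-119690350, plus strand) was the only member with a match to the sterol element, Hsd17b7 (chr1:169969206-169969455, minus strand) was the enzyme with the largest diet difference, Insig1 (chr5:28071162-28071411, plus strand) is the feedback regulator, and Abca1 (chr4:53159896-53160145, minus strand) is the exporter.
Hmgcs1: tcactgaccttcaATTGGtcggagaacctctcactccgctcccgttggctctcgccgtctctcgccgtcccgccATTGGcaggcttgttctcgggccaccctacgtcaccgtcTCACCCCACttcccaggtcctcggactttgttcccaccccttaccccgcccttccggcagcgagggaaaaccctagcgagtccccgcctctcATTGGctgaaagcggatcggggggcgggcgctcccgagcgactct
Hsd17b7: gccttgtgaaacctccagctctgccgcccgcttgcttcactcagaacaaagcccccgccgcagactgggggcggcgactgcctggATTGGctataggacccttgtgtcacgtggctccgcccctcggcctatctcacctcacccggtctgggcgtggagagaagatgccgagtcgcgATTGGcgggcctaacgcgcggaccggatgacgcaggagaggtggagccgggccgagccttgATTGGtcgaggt
Insig1: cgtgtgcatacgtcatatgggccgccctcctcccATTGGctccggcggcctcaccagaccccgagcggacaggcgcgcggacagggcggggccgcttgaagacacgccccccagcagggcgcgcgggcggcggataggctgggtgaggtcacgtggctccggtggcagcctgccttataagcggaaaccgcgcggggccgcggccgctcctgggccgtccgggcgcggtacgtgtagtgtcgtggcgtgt
Abca1: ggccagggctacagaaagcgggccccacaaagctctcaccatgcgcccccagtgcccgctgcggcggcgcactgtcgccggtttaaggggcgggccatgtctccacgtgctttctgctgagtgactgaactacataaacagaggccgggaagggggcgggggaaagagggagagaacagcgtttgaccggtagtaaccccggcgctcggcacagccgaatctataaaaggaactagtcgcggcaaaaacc

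The CCAAT box was present in 18 of the 23 members with a promoter, and in 37.5% of all 27025 genes in the table. It was found in 14 of 15 synthesis enzymes, all but Acat2, and was not found in Scap, Nr1h2, Nr1h3 or Abca1. The Sp1 box GGGCGG was present in 20 of the 23, and in 35.4% of all genes. The sterol element occurred in 1 member and in 1.23% of all genes. Only 1 letter of that element was left free, so variants at its other letters could not match. The Hsd17b7 sequence shown holds a stretch, tcacctcac, that departs from it at 1 letter. The count therefore does not show that the other promoters lack a sterol element. A relaxed form of the LXR direct repeat (DR4) matched in 0 members and in 0.229% of all genes. That form allowed only a single letter at its first position, so repeats with another first letter could not match. The Abca1 sequence shown holds such a stretch on the opposite strand, which departs from the form at its first letter only. The 0 count therefore does not show that these promoters lack an LXR repeat. All motifs were searched on both strands and counted separately, and no matches of different motifs shared bases in these promoters. These matches describe letters in a window and were not tested as binding sites.

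Levels below are log2 signal minus the 75th percentile of the array, differences are HFD minus CD, and n = 3 mice per diet throughout. The 75th percentile ranged from 1326.2 to 1973.3 intensity units, 27203 to 29412 probes per array were well above background, and no probe was saturated. The arrays lay on 3 slides: HFD replicate 1 on the first, HFD replicates 2 and 3 with CD replicate 1 on the second, and CD replicates 2 and 3 on the third. For the sterol enzymes, HFD replicate 3 and CD replicate 1 lay against their diets. They were singled out by the values of these same genes, so results without them are descriptions that lean towards a diet difference by construction, and they support none. The luminal keratins Krt8 and Krt18 were well above background on all 6 arrays. So were 10 of 12 adipocyte markers, and Adipoq and Cidec were so on 5 arrays each. Adipoq (1.04, SE 0.22) and Cfd (1.78, SE 0.27) were higher on every HFD array and Pparg (-1.09, SE 0.25) and Lipe (-0.29, SE 0.13) lower, while the mean of the 12 ran from -3.93 to -3.48 under HFD and from -4.29 to -3.78 under CD. The part of these markers in the results below was not tested.

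The comparison of diets asked whether the high-fat diet moved sterol genes in these samples. No member passed an adjusted p of 0.05 in limma (lowest adjusted p = 0.303, for Scap), where 4 genes, or 0.0171%, of all genes did. At an unadjusted p under 0.05, 0 of 28 members were higher, where 5.88% of all genes were, and 1 was lower, where 7.46% were. The next counts use all 6 arrays and the brightest probe of each gene. On every HFD array, 0 members were higher than on any CD array, against 8.47% of all genes. In this way 2 were lower, Scap and Insig2, against 8.75%. By sign, 15 of 18 synthesis enzymes had higher and 5 of 5 LXR and efflux genes lower mean levels after the high-fat diet, where 49% of all genes had higher means. Over all 28 members, 18 differences were positive and 10 negative, against 51% negative over all genes. The median difference was 0.21 for the enzymes and -0.20 for the LXR and efflux genes, beside -0.01 over all genes tested.

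**Figure D1:**
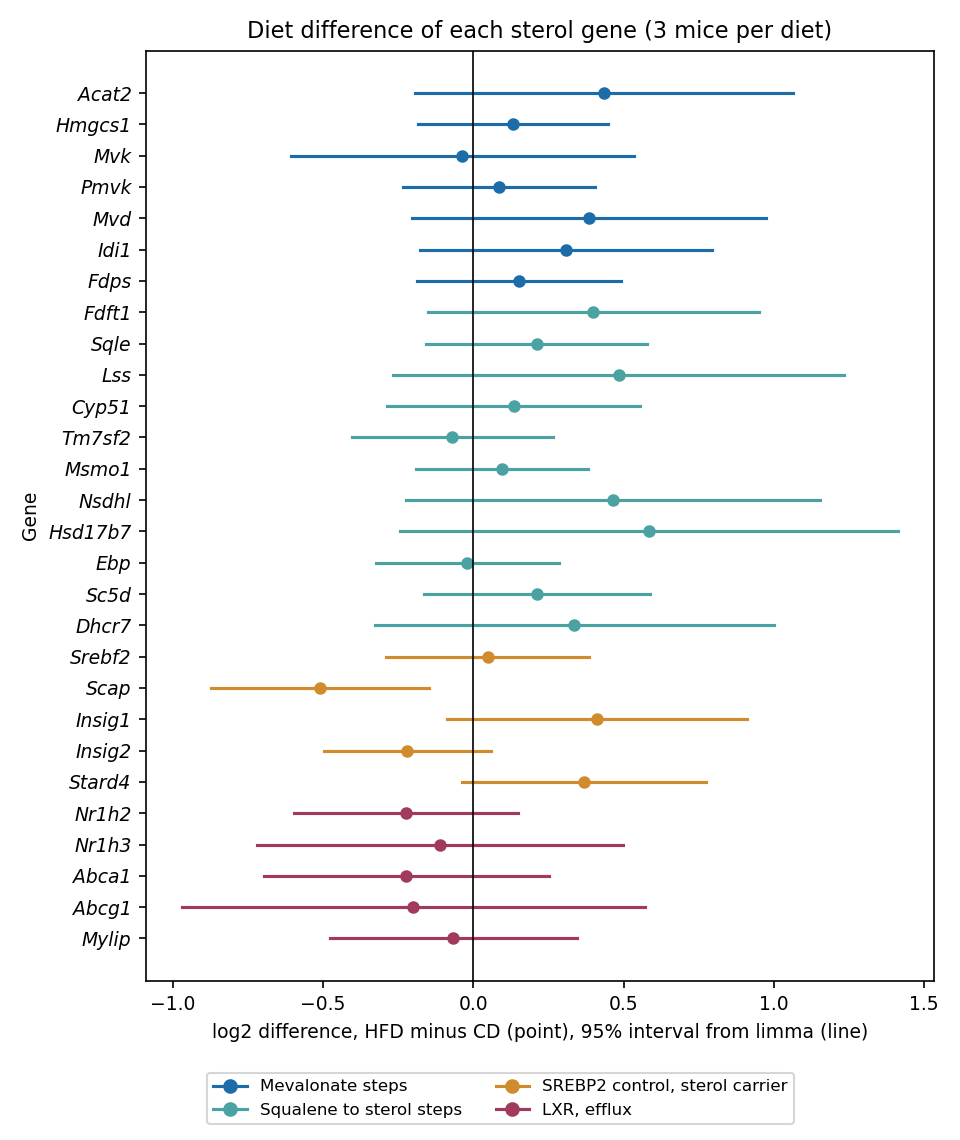
Log2 difference of each of the 28 genes, HFD minus CD (points), with its 95% interval from limma (lines), coloured by role, from 3 mice per diet. The intervals of 27 genes include 0; that of Scap runs from -0.87 to -0.15 before adjustment over all genes.

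The first steps make mevalonate and turn it into isoprenoids. Acat2 (NM_009338), which joins acetyl-CoA units, had levels of -0.84, -0.59 and -0.86 on HFD replicates 1 to 3 and of -0.67, -1.66 and -1.26 on CD replicates 1 to 3. Its difference of 0.44 (SE 0.26, adjusted p = 0.472 in limma) was the largest of the mevalonate steps, and CD replicate 1 lay inside the HFD range. Acat2 has a neighbouring paralogue, Acat3, and cross-hybridisation of its probe was not tested. Hmgcs1 (NM_145942), which makes HMG-CoA, had 5.50, 5.50 and 5.29 under HFD and 5.42, 5.16 and 5.31 under CD. All arrays lay close together, and the difference was 0.13 with a 95% interval of -0.19 to 0.45.

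Mvd (NM_138656), the decarboxylase that yields isopentenyl diphosphate, differed by 0.38 (SE 0.24), and Idi1 (NM_145360), its isomerase, by 0.31 (SE 0.20). Idi1 stood at 4.67, 4.64 and 4.16 under HFD and at 4.46, 3.999 and 4.09 under CD, so that HFD replicate 3 lay below CD replicate 1. Fdps, the farnesyl diphosphate synthase, differed by 0.15 (SE 0.14), and the kinases Pmvk and Mvk by 0.09 (SE 0.13) and -0.04 (SE 0.24). Mvk had 3.97, 4.08 and 3.24 under HFD and 3.88, 3.74 and 3.77 under CD. Its HFD replicate 3 was the lowest of the 6 arrays, and its second probe differed by -0.001 (SE 0.29).

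The later steps run from squalene to cholesterol and held the largest single enzyme differences. Their median of 0.21 was close to the 0.15 of the mevalonate steps, and the lists were not compared by a test. Hsd17b7 (NM_010476), a sterol ketoreductase, had levels of 1.48, 1.42 and 0.82 on HFD replicates 1 to 3 and 1.35, 0.23 and 0.39 on CD replicates 1 to 3. The means were 1.24 ± 0.37 and 0.66 ± 0.61 (SD, n = 3 each), 1.5-fold apart, with an adjusted p of 0.466 in limma. CD replicate 1 sat with HFD replicates 1 and 2, and HFD replicate 3 sat below it. A second Hsd17b7 probe differed by 0.80 (SE 0.40).

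Lss (NM_146006), which closes squalene epoxide into lanosterol, again had HFD replicate 3 below CD replicate 1. Its levels were 1.82, 1.90 and 1.21 under HFD and 1.71, 0.70 and 1.05 under CD, a difference of 0.48 (SE 0.31, adjusted p = 0.498 in limma). Nsdhl (NM_010941), a sterol decarboxylase, had 1.89, 1.78 and 1.62 under HFD and 1.93, 0.88 and 1.08 under CD. Here CD replicate 1 was the highest of all 6 arrays, and the difference was 0.47 (SE 0.28), or 0.20 (SE 0.19) on a second probe.

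Fdft1 (NM_010191), squalene synthase, stood at 2.81, 2.88 and 2.40 under HFD and at 2.68, 1.97 and 2.24 under CD. The difference was 0.40 (SE 0.23). A second, much dimmer probe differed by 0.47 (SE 0.16, adjusted p = 0.334 in the fit of single probes). On that probe every HFD array lay above every CD array, at -5.65, -5.54 and -5.68 against -5.82, -6.34 and -6.12. Dhcr7, which catalyses the last reduction of one branch, differed by 0.34 (SE 0.28), and Sqle, squalene epoxidase, by 0.21 (SE 0.15). Sc5d, the sterol desaturase, differed by 0.21 (SE 0.15), the demethylase Cyp51 by 0.13 (SE 0.17) and the methyl oxidase Msmo1 by 0.10 (SE 0.12). The isomerase Ebp (-0.02, SE 0.13) and the reductase Tm7sf2 (-0.07, SE 0.14) had negative differences, and a second Tm7sf2 probe differed by 0.11 (SE 0.20).

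**Figure D2:**
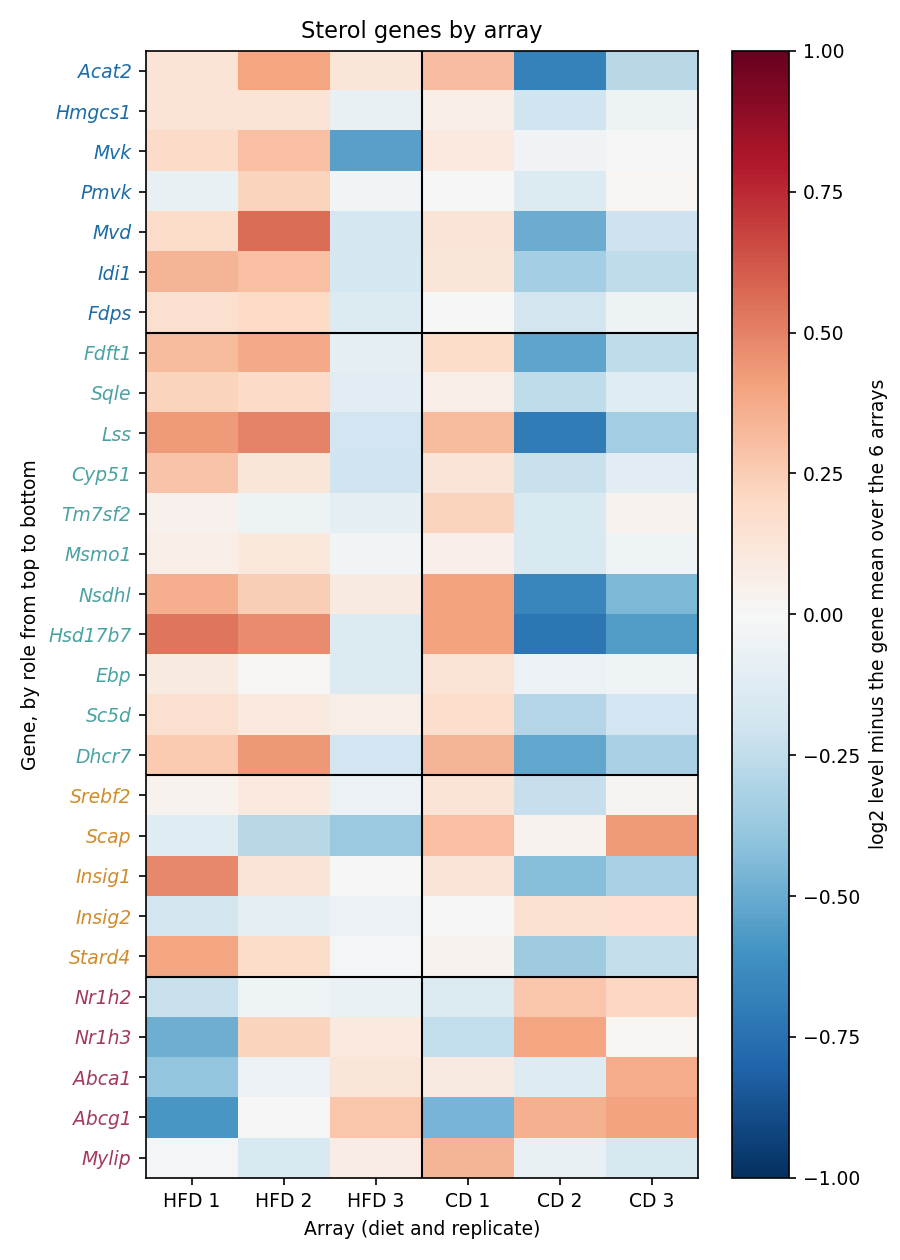
Log2 level of each of the 28 genes on each array, minus the mean of the gene over the 6 arrays (colour), with genes grouped by role from mevalonate steps at the top to LXR and efflux genes at the bottom. For the 18 enzymes, CD replicate 1 resembles HFD replicates 1 and 2. HFD replicate 3 lies below CD replicate 1 in 18 of 18, by the brightest probe of each gene.

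Across the arrays the enzymes moved as a block that crossed the diets. By the brightest probe of each gene, CD replicate 1 was above HFD replicate 3 for 18 of 18 enzymes, against 46.3% of all genes. CD replicate 2 was the lowest CD array for 18 of 18, against 24.5% of all genes, and HFD replicate 3 was the lowest HFD array for 17 of 18, against 40.4%. CD replicate 1 exceeded both other CD arrays for 17 of 18, against 32.1%. HFD replicates 1 and 2 both exceeded CD replicates 2 and 3 for 16 of 18, against 30.7%. These orders were described after the values had been seen, and the enzymes are not independent of each other.

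Within the second slide, the enzymes went the other way. There HFD replicates 2 and 3 stood against CD replicate 1, and 15 of 18 enzymes had lower means under HFD, where 44% of all genes did, with a median of -0.08. Hsd17b7 differed by -0.23 and Nsdhl by -0.24 on this slide, and the fit with slide as a block takes its estimates from these 3 arrays. Its CD arm is 1 mouse, so the spread in that fit comes from the arrays that share both slide and diet and from limma's pooling over genes, and CD replicate 1 is assumed to vary like them. There 1 of 28 members, Abcg1, was higher at an unadjusted p under 0.05 in limma, against 2.55% of all genes, and 0 were lower, against 2.7%. With array weights, a fit that gave CD replicate 3 a weight of 4.69 and CD replicate 1 a weight of 0.34, 15 members were below an unadjusted p of 0.05, against 41.7% of all genes. HFD replicate 2 exceeded CD replicate 1 for 13 of 18 enzymes, while HFD replicate 3 exceeded it for none. Without CD replicate 1, 18 of 18 enzymes were higher after the high-fat diet, where 45.3% of all genes were, and the median was 0.32. Of them, 7 reached an unadjusted p under 0.05 in limma, against 10.2% of all genes, and the smallest adjusted p was that of Nsdhl (0.78, adjusted p = 0.13). In the same 5 arrays, 11 enzymes were higher on every HFD array than on either CD array, against 19.9% of all genes, while 27.2% of all genes were lower in this way. As CD replicate 1 was above both other CD arrays for 17 enzymes, leaving it out raises these differences by construction. Leaving out the other arrays one at a time gave enzyme medians of 0.17 (HFD replicate 1), 0.18 (HFD replicate 2), 0.13 (CD replicate 2) and 0.18 (CD replicate 3). Without HFD replicate 3 the median was 0.29, and 2 of 28 members (Idi1 and Stard4) were higher at an unadjusted p under 0.05 in limma, against 9.5% of all genes.

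**Figure D3:**
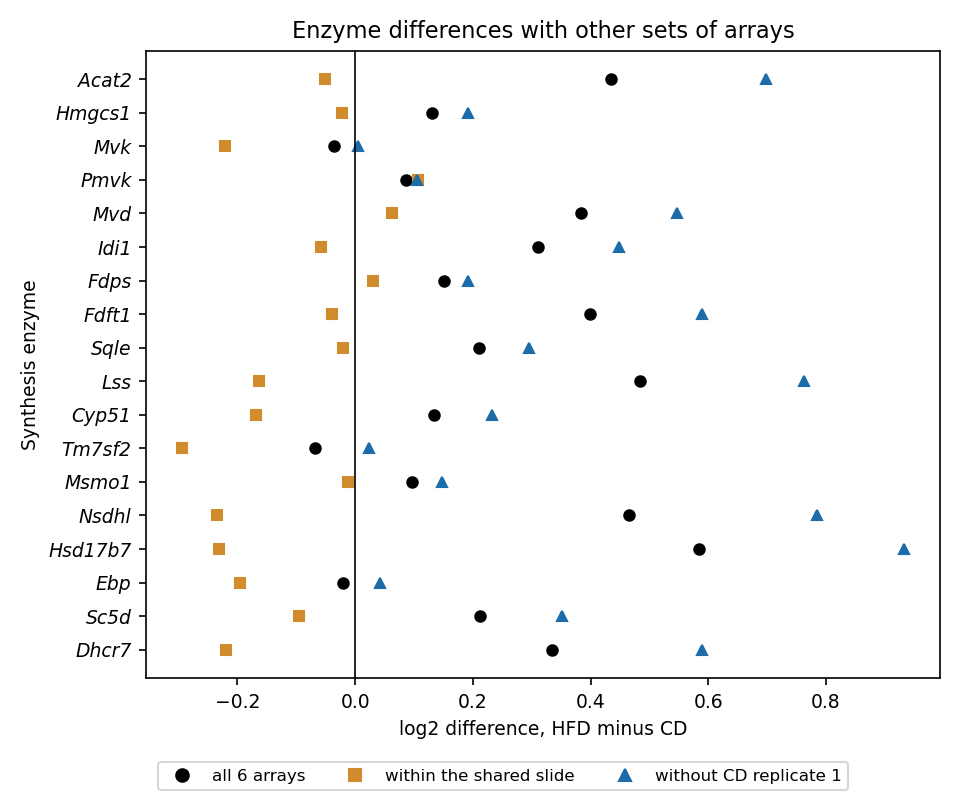
Log2 difference of the 18 enzymes, HFD minus CD, from all 6 arrays (circles), within the slide that held both diets (squares) and without CD replicate 1 (triangles). The squares lie below 0 for 15 enzymes and the triangles above 0 for 18; CD replicate 1 was singled out by these same values.

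The mean over luminal epithelial markers followed the same order of arrays, though single markers did not all do so. The mean enzyme level was 3.15, 3.19 and 2.82 on HFD replicates 1 to 3 and 3.11, 2.59 and 2.76 on CD replicates 1 to 3. The mean over 16 of 16 luminal markers was 1.31, 1.51 and 0.56 under HFD and 1.01, 0.30 and 0.47 under CD. Both list means ranked the 6 arrays identically. For Krt8 and Krt18, CD replicate 1 (4.24 and 7.44) lay below HFD replicate 3 (4.64 and 7.59). For Elf5, CD replicate 1 (-2.32) lay above HFD replicate 3 (-4.35). The mean over 10 of 10 fibroblast markers was 2.64, 2.64 and 3.78 under HFD and 3.63, 4.21 and 4.35 under CD, lowest on HFD replicates 1 and 2, with HFD replicate 3 and CD replicate 1 close together. The mean over 10 of 10 basal markers parted by diet instead, at 2.12 to 2.27 under HFD and 1.12 to 1.48 under CD. So did that over 10 of 12 muscle markers, at -3.88 to -3.76 under HFD and -2.76 to -2.38 under CD. The part that these markers play in the enzyme levels was not tested, and in such bulk RNA fewer cells of a type and less RNA per cell cannot be told apart.

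**Figure D4:**
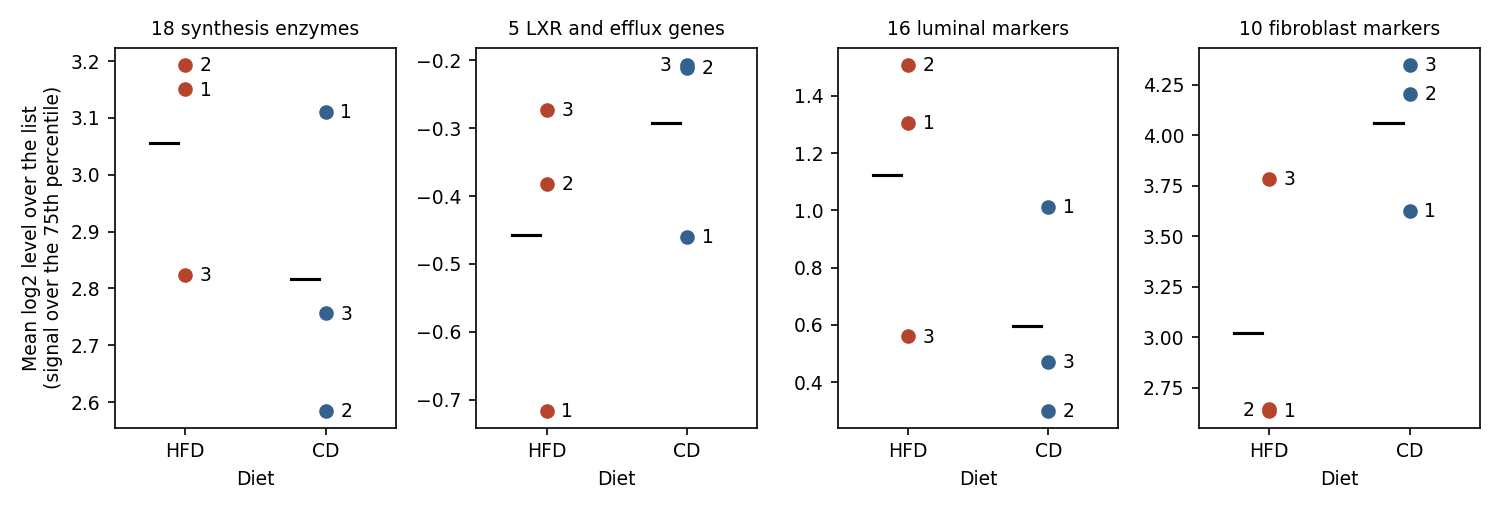
Mean log2 level of 4 gene lists on each array, by diet, with the replicate number beside each point and the diet mean as a bar; each panel has its own axis. CD replicate 1 lies at 3.11 for the enzymes and 1.01 for luminal markers, above HFD replicate 3 in both.

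Among the genes that control SREBP2, Scap and Insig2 did not overlap between diets by their brightest probes, and the SREBP2 gene did overlap. These were the 2 of 28 members lower without overlap, against 8.75% of all genes, so the count was not above that background. Scap (NM_001001144), the sterol sensor and escort of SREBP2, had levels of 3.29, 3.13 and 3.04 on HFD replicates 1 to 3 and 3.71, 3.44 and 3.84 on CD replicates 1 to 3. All HFD arrays lay below all CD arrays, with a difference of -0.51 (SE 0.15, adjusted p = 0.303 in limma), or 0.703 of the CD level. Its difference was -0.62 within the second slide and -0.49 without CD replicate 1. Insig2 (NM_133748), a protein that retains SCAP, had 0.37, 0.46 and 0.50 under HFD and 0.56, 0.70 and 0.72 under CD, again without overlap. It differed by -0.22 (SE 0.11, adjusted p = 0.429 in limma), and by -0.08 within the second slide. A second Insig2 probe (NM_178082) also parted by diet but went the other way. It stood at -1.19, -1.25 and -1.28 under HFD and -1.33, -1.49 and -1.64 under CD. Its difference was 0.24 (SE 0.13, adjusted p = 0.417 in the fit of single probes). The mean of both Insig2 probes differed by 0.013, so the gene had no single direction.

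Insig1 and Stard4, whose genes respond to SREBP2, had higher means under HFD but overlapped. Insig1 (NM_153526) stood at -0.10, -0.45 and -0.58 under HFD and -0.45, -1.01 and -0.91 under CD, a difference of 0.41 (SE 0.21, adjusted p = 0.412 in limma). Stard4 (NM_133774), a carrier of sterol between membranes, had 1.49, 1.29 and 1.08 under HFD and 1.14, 0.75 and 0.86 under CD, a difference of 0.37 (SE 0.17, adjusted p = 0.388 in limma). For both, only CD replicate 1 reached into the HFD range. A second Stard4 probe differed by 0.89 (SE 0.34, adjusted p = 0.350 in the fit of single probes). Srebf2 (NM_033218), which encodes SREBP2, stood at 0.88, 0.95 and 0.79 under HFD and at 0.99, 0.62 and 0.88 under CD, a difference of 0.05 with a 95% interval of -0.29 to 0.39.

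The LXR and efflux genes had small negative differences whose intervals all included 0. Nr1h2 (NM_009473), the widely expressed LXR beta, had levels of 2.88, 3.06 and 3.03 under HFD and 2.95, 3.38 and 3.31 under CD, a difference of -0.22 (SE 0.15, adjusted p = 0.520 in limma). Nr1h3, LXR alpha, differed by -0.11 (SE 0.25) and by -0.01 (SE 0.22) on its second probe. Abcg1 (NM_009593), an exporter of sterol to lipoprotein particles, stood at 0.02, 0.60 and 0.88 under HFD and at 0.14, 0.96 and 1.00 under CD. Its lowest arrays were HFD replicate 1 and CD replicate 1, and the difference was -0.20 (SE 0.32), 0.04 without HFD replicate 1 and 0.60 within the second slide. Abca1 (NM_013454), which loads apolipoproteins with sterol, had -3.01, -2.68 and -2.49 under HFD and -2.52, -2.75 and -2.24 under CD, a difference of -0.22 (SE 0.20). Mylip, the ligase that marks lipoprotein receptors for degradation, differed by -0.07 (SE 0.17).

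Synthesis was also set against efflux. On each array, the mean enzyme level minus the mean LXR and efflux level was 3.87, 3.57 and 3.10 on HFD replicates 1 to 3 and 3.57, 2.80 and 2.96 on CD replicates 1 to 3. The means were 3.51 ± 0.39 and 3.11 ± 0.41 (SD, n = 3 each), a difference of 0.40 that is about as large as the spread within a diet. CD replicate 1 matched HFD replicate 2 and exceeded HFD replicate 3. The difference was -0.23 within the second slide. It was 0.23, 0.37 and 0.61 without HFD replicates 1, 2 and 3, and 0.63, 0.25 and 0.33 without CD replicates 1, 2 and 3. As a score over chosen genes it was given no p.

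Further genes of the pathway, taken from lists by function, were read from the same fit. Of 52 measured genes in 4 lists, 0 passed an adjusted p of 0.05 in limma, and 3 were higher and 6 lower at an unadjusted p under 0.05, where 5.88% of all genes were higher and 7.46% lower. Ch25h, which makes the oxysterol 25-hydroxycholesterol, had the largest difference, with levels of -0.51, 0.14 and 0.08 under HFD and 1.60, 1.82 and 2.12 under CD. Its difference of -1.95 (SE 0.23, adjusted p = 0.108 in limma) left the diets apart on all 6 arrays. Hsd3b7, an enzyme of bile acid synthesis that acts on oxysterol products, was lower on every HFD array too (-0.48, SE 0.15, adjusted p = 0.312 in limma). Pltp, a phospholipid transfer protein induced by LXR, had -2.07, -2.27 and -1.88 under HFD and -3.04, -2.77 and -2.91 under CD. Its difference of 0.84 (SE 0.15, adjusted p = 0.184 in limma) had the opposite sign to those of the 5 LXR and efflux genes. In the further LXR list that holds Pltp, 6 of 12 differences were positive and 6 negative, with a median of 0.001. That list mixes LXR targets with RXR partners and oxysterol enzymes, so the even split does not describe the targets alone. Most LXR targets in it had positive differences, as Pltp did, and that of Srebf1 was negative (-0.20). Sult2b1, which sulphates sterols, differed by 1.53 (SE 0.79, adjusted p = 0.422 in limma) but overlapped. It stood at 0.71, 0.98 and 0.47 under HFD and at -1.28, 1.06 and -2.21 under CD. CD replicate 2 was thus its highest array.

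In a list of 10 further genes of the sterol branch, of isoprenoid use and of ubiquinone synthesis, 8 differences were positive, with a median of 0.17. Lbr, a nuclear membrane protein with sterol reductase activity, differed by 0.53 (SE 0.28) and Pdss2, of ubiquinone side chain synthesis, by 0.32 (SE 0.20).

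Among 12 genes of SREBP processing and of sterol-enzyme turnover, Marchf6, a ubiquitin ligase that degrades squalene epoxidase, differed by 0.40 (SE 0.16) and Mbtps2, a protease that releases SREBP, by 0.51 (SE 0.25). Mbtps1, the protease that cuts first, differed by -0.20 (SE 0.12). Of 18 uptake, transport and storage genes, a negative difference was found for 14, and the median was -0.17. Gramd1b, which moves sterol out of the plasma membrane, differed by -1.09 (SE 0.38), Lrp1, an endocytic receptor, by -0.90 (SE 0.31) and Lipa, the lysosomal lipase that frees cholesterol, by -0.71 (SE 0.25). For Lrp1, levels of 1.76, 2.06 and 2.80 under HFD and 2.79, 3.04 and 3.50 under CD put HFD replicate 3 beside CD replicate 1, in the order of the fibroblast markers. The part of that list in these differences was not tested.

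Fatty acid synthesis, the arm governed by SREBP1, is the most closely related pathway. Its 14 measured genes had a median difference of 0.03, beside 0.21 for the sterol enzymes, and 8 were positive, but the difference between the lists was not tested. Fads2, a desaturase, differed by 0.30 (SE 0.11) without overlap, Fasn, the fatty acid synthase, by 0.46 (SE 0.27) and Acacb, the mitochondrial acetyl-CoA carboxylase, by -0.76 (SE 0.31). Srebf1, the gene of SREBP1, had -2.47, -2.15 and -2.24 under HFD and -2.12, -2.04 and -2.08 under CD, lower on every HFD array, with a difference of -0.20 (SE 0.13, adjusted p = 0.494 in limma).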

How the data were processed

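RNA from 6 mice was hybridised to 6 Agilent mouse arrays. Spots were quantified in Agilent Feature Extraction (version 11.0.1.1) per the file headers; of the deposited intensity columns, the background-subtracted and detrended processed signal was used. The deposited table of 30608 probes holds the same intensity values on a linear scale over about the 75th percentile: 99.9% stood in 1 ratio, within 1%, to the scanner values, with column medians of 0.134, 0.134 and 0.137 (HFD) and 0.134, 0.140 and 0.134 (CD).

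Control and outlier spots were left out. Only probes with a usable spot on every array were used, which removed 111 of 39429. Each log2 value of the deposited signal was taken relative to the 75th percentile of its array. Probes well above background on 3 or more arrays were kept (28689), and the brightest probe stood for each gene. RefSeq accessions named 27421 probes through a GRCm38.p6 gene table, whose build differs from that of the array annotation (mm9). Positions are given only for the promoter sequences shown, in GRCm38.p6. The diet comparison used limma (3.58.1, under R 4.3.3; two-sided, Benjamini-Hochberg over all 23460 genes, threshold 0.05), with no covariate. With so few arrays, precision is limited. The series design text calls the samples biological replicates. The fit was tested on simulated data. Samples were grouped by their titles.

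Members and lists were chosen with earlier results of these data known. Named genes are all members, up to 4 genes by smallest p in each other list, and Srebf1; some of these are not reported here. Motifs were searched in RefSeq promoters. Alternatives covered scaling, background, filter, floor, probe choice, the deposited table, variance, weights, blocks and leaving out each array. Single probes were fitted separately after the data had been seen.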

Additional observations from a re-analysis of the deposited data

How the results depend on the processing

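With 3 mice per diet, limits come from the number of arrays and from the slides. The count of genes past an adjusted p of 0.05 was 4 in the main analysis, 2 centred on the median, 7 with normexp and quantile normalization, 7 with probes well above background on all 6 arrays, 5408 with array weights, and 0 with quantile normalization, normexp and the 75th percentile, no filter, slide as a fixed block or the replicate block (unadjusted p under 0.05 in limma: 3210, 1098, 3165, 1232 and 4044 genes, in that order). Leaving out 1 array gave 0 to 37: 37 without HFD replicate 3 and 0 without any other single array (1413 to 5425 at an unadjusted p under 0.05 in limma).

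Members past an adjusted p of 0.05 numbered 0 except with array weights, which gave CD replicate 3 a weight of 4.69 and CD replicate 1 a weight of 0.34. There 8 of 28 passed (7 higher, 1 lower), beside 10.9% of all genes higher and 12.1% lower. At an unadjusted p under 0.05, members numbered 1 in the main analysis, 2 with normexp and quantile normalization, 2 with the mean of all probes, 15 with array weights (41.7% of all genes), 3 with the replicate block, and 0 to 11 when an array was left out, 11 of them without CD replicate 1 and 3 without HFD replicate 3. The labels do not say whether replicate numbers pair the mice. Deviations of same-numbered arrays correlated at 0.33, -0.14 and 0.25. HFD replicates 1 and 3 correlated best with the same-numbered CD array, and HFD replicate 2 with CD replicate 1 (0.13). For HFD replicate 3 the margin was small, at 0.25 against 0.23 with CD replicate 2. These few correlations cannot decide whether mice were paired.

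Within the second slide the enzyme median was -0.077, the LXR and efflux median 0.092 and the difference between the list means -0.234. Signs also turned there for Acat2 (-0.051), Hmgcs1 (-0.023), Idi1 (-0.058), Fdft1 (-0.039), Sqle (-0.020), Lss (-0.163), Cyp51 (-0.168), Msmo1 (-0.012), Nsdhl (-0.235), Hsd17b7 (-0.231), Sc5d (-0.095), Dhcr7 (-0.220), Srebf2 (-0.116), Insig1 (-0.065), Nr1h2 (0.092), Nr1h3 (0.409) and Abcg1 (0.602). The median of all genes was 0.27 after normexp scaled to the 75th percentile. The LXR and efflux median became 0.032 there, with 5 of 5 genes still below the median of all genes, and only 6 of 18 enzymes lay above it. Signs turned for Hmgcs1 (-0.037), Pmvk (-0.023), Fdps (-0.003), Msmo1 (-0.034), Srebf2 (-0.018), Nr1h3 (0.032), Abca1 (0.103) and Mylip (0.054). Array weights turned Mvk (0.149), Ebp (0.054) and Mylip (0.045). Ebp was 0.002 centred on the median, 0.001 with quantile normalization and 0.016 with normexp and quantile normalization. The mean of all probes turned Tm7sf2 (0.022), Srebf2 (-0.025) and Insig2 (0.013). Leaving out 1 array gave ranges that crossed 0 for Abcg1 (-0.480 to 0.040), Ebp (-0.072 to 0.042), Mvk (-0.194 to 0.226), Mylip (-0.165 to 0.088), Nr1h3 (-0.262 to 0.106), Pmvk (-0.005 to 0.144), Srebf2 (-0.056 to 0.128) and Tm7sf2 (-0.162 to 0.023). The cause of these changes was not tested. The enzyme median and the difference between the list means kept their signs in all other alternatives, at 0.079 to 0.324 and 0.208 to 0.635. The enzyme median of 0.079 came from normexp scaled to the 75th percentile, where it lay below the median of all genes (0.27). Abcg1 has no value in the alternative with the deposited table.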
